A study of Mus musculus with 6 samples.

Results

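Transcripts of 9 receptors for neurotrophic factors were followed across 6 RNA-Seq libraries of mouse diaphragm at E14.75. The 9 genes were chosen by name, out of 23073 genes with values, and belong to 3 families: Ngfr, Ntrk2 and Ntrk3 bind neurotrophins, Ret, Gfra1 and Gfra2 bind ligands of the GDNF family, and Lifr, Cntfr and Il6st bind CNTF, LIF and related cytokines. Whole muscle was sequenced from 2 libraries of the genotype erbB3 WT (wild-type 5 and wild-type 6) and 2 of the genotype erbB3 KO (mutant 1 and mutant 2), whose muscle lacks Schwann cells according to the labels. The other 2 libraries (Wnt1-Ribotag 1 and Wnt1-Ribotag 2) came from mice with the genotype Wnt1-Cre, Ribotag, erbB3 WT, from ribosomes pulled down with an antibody against hemagglutinin, the tag that Ribotag places on a ribosomal protein in cells with Cre activity. Diaphragms of an entire litter were pooled for each of these, and according to the paper later genotyping showed only part of the embryos to carry Cre. Each pool therefore also held diaphragms without the tag. Much less RNA went into the library than for whole muscle. Wnt1-Cre acts in the neural crest, whose descendants include Schwann cells but also sensory and autonomic neurons, so the tag is not restricted to glia. The Wnt1-Ribotag libraries differ from wild-type muscle both in how the RNA was prepared and in carrying Wnt1-Cre and Ribotag, and from mutant muscle also in the erbB3 genotype. The effects of these cannot be told apart. Values are RPKM, reads normalized to the length of the gene and the depth of the library, at depths between 100178863 and 230216660 mapped reads as the floor values of the files imply.

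Neurotrophic factors are secreted proteins on which developing neurons and glia depend for survival and growth. Neurotrophins act through Trk receptor tyrosine kinases and through p75NTR, the product of Ngfr. GDNF and its relatives bind a GPI-anchored GFR alpha co-receptor that presents them to the kinase Ret. CNTF and LIF act through gp130, the product of Il6st, paired with the LIF receptor and, for CNTF, with the anchored CNTF receptor alpha. Motor neurons use receptors of all 3 families. Their cell bodies lie in the spinal cord, and only their axons reach the muscle, whereas immature Schwann cells are known for abundant p75NTR.

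The labels were first checked against markers. Sox10, the transcription factor of the Schwann cell lineage, was at 2.89 and 2.16 RPKM in wild-type, 0.0085 and 0.018 in mutant and 15.5 and 32.2 in Wnt1-Ribotag libraries. Erbb3 itself, at 16.5 and 15.8 RPKM in wild-type and 21.5 and 11.9 in mutant muscle, did not tell the genotypes apart. The 9 Schwann cell markers other than Erbb3 summed to between 17.4 and 18.9 RPKM in wild-type, between 5.79 and 7.13 in mutant and between 122 and 304 in Wnt1-Ribotag libraries, and none was at the floor in any library. The sums of 10 skeletal muscle markers overlapped between Wnt1-Ribotag (2906 and 3124 RPKM) and wild-type (2537 and 3019 RPKM) libraries, and mutant libraries had 4745 and 2955 RPKM, with the lower of them inside the wild-type range. Sums of 10 liver markers were between 158 and 514 RPKM in wild-type, between 12.4 and 20.5 in mutant and between 203 and 303 in Wnt1-Ribotag libraries. Markers of connective tissue and mesothelium summed to 1321 and 1360 RPKM in wild-type and to 811 and 962 in Wnt1-Ribotag libraries, those of macrophages to 87.2 and 101 and to 46.9 and 54.2. Mutant libraries overlapped with wild-type in the former (1097 and 1415) and in the latter (76.6 and 91.6). Endothelial and pericyte markers summed to 64.2 and 70.1 RPKM in wild-type and, below both, to 62.9 and 46.5 in mutant muscle, with 68.2 and 55.8 in Wnt1-Ribotag libraries. Erythroid markers summed to 9781 and 4890 RPKM in wild-type and 7810 and 6173 in mutant muscle, and to 4051 and 3691 in Wnt1-Ribotag libraries, below all the others. The part of these cells in the receptor differences was not tested.

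All 9 receptors had a lower mean in mutant than in wild-type muscle, as did 66.8% of all genes tested. In 7 of them both mutant libraries lay below both wild-type libraries, while 37.4% of all genes tested did so. The 7 include Ret, which passed the filter on low values here only through wild-type 6. None passed an adjusted p of 0.05 in limma, and 0.171% of all genes did. An unadjusted p under 0.05 was found for 4 of the 9, and for 12.0% of all genes. None was at least 2-fold apart in every pair of a mutant and a wild-type library either, against 0.448% of all genes. Without wild-type 5, Ret met both thresholds (0.756% and 1.06% of all genes then did), but that fit sets the lone wild-type 6, through which alone Ret passed the filter, against the spread of the mutant pair. Without mutant 1, Ngfr was 2-fold apart in every pair, as were 0.859% of all genes. The median log2 difference of the 9 receptors was -0.41, beside -0.10 over the 14052 genes tested. Median-ratio scaling of the libraries brought the latter to 0.0042, and the share of genes below 0 from 67.0% to 49.3%, and the differences of all 9 receptors stayed below 0 under it. In bulk muscle, fewer cells of a type and less RNA per cell cannot be told apart.

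Against wild-type muscle, the Wnt1-Ribotag libraries had higher levels of Ngfr, Ntrk2, Gfra1, Gfra2 and Lifr without overlap, 5 of the 9 receptors, while 23.3% of all genes stood this way. The means of these 5 were between 2.29 and 3.08 times the wild-type mean, beside 9.45 times for Sox10. None passed an adjusted p of 0.05 in limma, in a comparison in which 0.00694% of the genes, 1 of 14418, passed. An unadjusted p under 0.05 was found for 4 of the 9 and for 19.5% of all genes. None was at least 2-fold higher in every pair, against 1.51% of all genes, though Ngfr and Gfra2 were so after median-ratio scaling (1.76% of all genes) and Gfra1 and Gfra2 at a pseudocount of 0.1 (2.41%). Without Wnt1-Ribotag 1, 4 receptors passed in limma (Ngfr, Gfra1, Gfra2 and, lower, Il6st), and without Wnt1-Ribotag 2, 5 passed (Ngfr, Ntrk2, Gfra1, Gfra2 and Lifr). In these fits the spread comes from the wild-type pair alone, and 31.0% and 41.8% of all genes passed. Against mutant muscle, 7 receptors were higher in Wnt1-Ribotag libraries without overlap, beside 29.7% of all genes. At least 2-fold higher in every pair were 4 of them, Ngfr, Ret, Gfra1 and Gfra2, beside 3.34% of all genes. Ret, counted in both, passed the filter here only through the Wnt1-Ribotag libraries in which it is high, so its place in these counts is no support for a difference. None of the 9 passed in limma, and 1.19% of all genes did. An unadjusted p under 0.05 was found for 7 of the 9, among them Ret, whose place in this count is no support either, and for 19.3% of all genes. With Wnt1-Ribotag 1 left out 6 passed (Ngfr, Gfra1, Gfra2, Lifr, Cntfr and Ret, the last over the filter only through Wnt1-Ribotag 2), with Wnt1-Ribotag 2 left out also 6 (Ngfr, Ntrk2, Ntrk3, Gfra1, Gfra2 and Lifr), in fits where the mutant pair alone sets the spread and 17.8% and 26.0% of all genes passed. Without mutant 1 it was 1, Ngfr, beside 1.07% of all genes. The median log2 difference of the receptors was 1.11 against wild-type and 1.33 against mutant libraries, beside -0.05 and 0.04 over all genes. Both comparisons use the same Wnt1-Ribotag libraries and are not independent of each other.

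**Figure D1:**
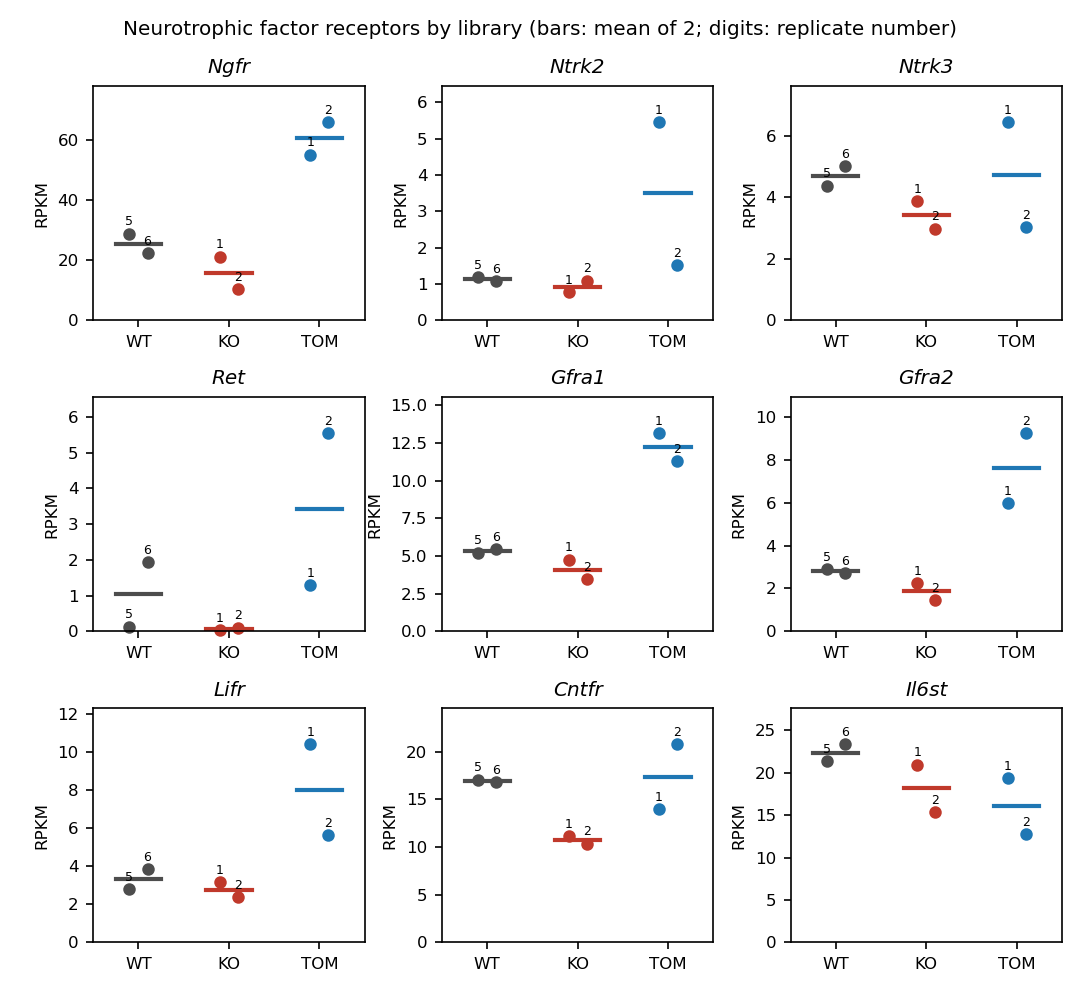
RPKM (linear axes from 0, scaled for each gene) of the 9 receptors in wild-type (WT), mutant (KO) and Wnt1-Ribotag (TOM) libraries, where points are libraries marked with their replicate number and bars are means of 2. Both Wnt1-Ribotag points lie above the others for Ngfr, Ntrk2, Gfra1, Gfra2 and Lifr, the Ntrk2 points lie far apart at 5.46 and 1.53, and both mutant points of Cntfr lie below all others.

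**Figure D2:**
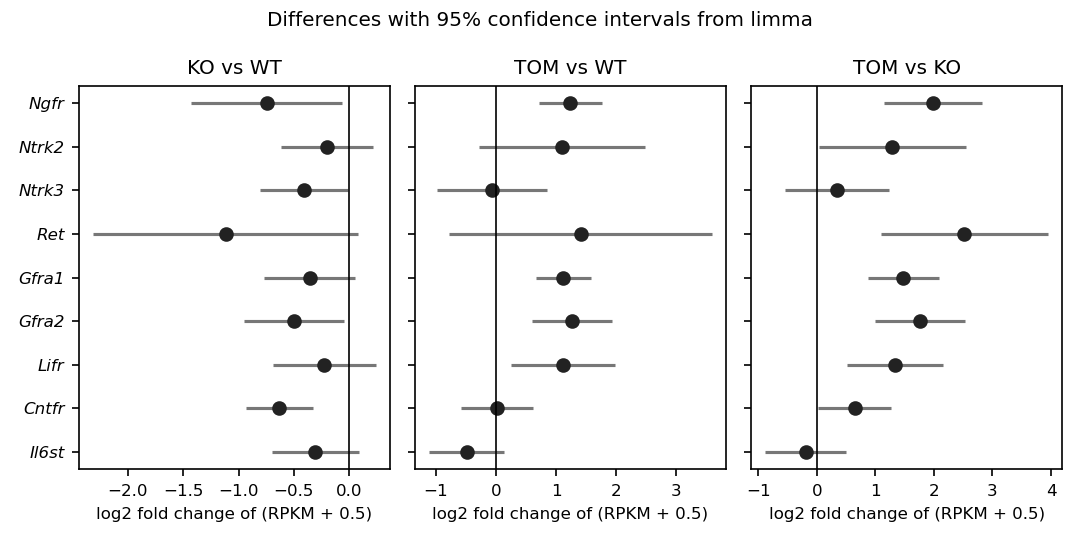
Log2 differences of RPKM plus 0.5 for the 9 receptors in the 3 comparisons, where points are limma estimates and lines their 95% confidence intervals, unadjusted for multiple genes. All 9 points are below 0 for mutant vs. wild-type (KO vs WT), and Ret has the widest interval there, from -2.31 to 0.08.

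Among the neurotrophin receptors, Ngfr (ENSMUSG00000000120, chromosome 11 of GRCm38 from 95568818 to 95587735) was the most abundant. Wild-type 5 and 6 had 28.8 and 22.3 RPKM, mutant 1 and 2 had 21.2 and 10.4, and Wnt1-Ribotag 1 and 2 had 55.1 and 66.0. The groups did not overlap, but mutant 1 was just below wild-type 6, and mutant 2 was at 0.494 of mutant 1. Wild-type muscle had a mean of 25.6 ± 4.65 RPKM and mutant muscle one of 15.8 ± 7.58 (both SD, n = 2), with a log2 difference of -0.75 (SE 0.29, limma adjusted p = 0.393) that did not pass the test. Mutant muscle had 61.8% of the Ngfr level of wild-type on average, beside 0.521% for Sox10. In Wnt1-Ribotag libraries the mean was 2.37 times that of wild-type, a log2 difference of 1.23 (SE 0.21, limma adjusted p = 0.152, unadjusted 0.0018) between 0.92 and 1.55 in the 4 pairs. Against mutant muscle the difference was 1.98 (SE 0.35, limma adjusted p = 0.0601), between 1.36 and 2.60 in the pairs.

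The stretch upstream of Ngfr is shown because this was the most abundant receptor of the tagged RNA, and that of Cntfr for contrast, as the receptor whose difference between genotypes varied least over the library pairs and whose tagged and wild-type libraries overlapped. Both come from RefSeq windows on GRCm38.p6, which hold 6 of the 9 genes, are cut to the bases before the start, without annotated exons, and lie on the minus strand at chr11:95587736-95587948 and chr4:41696038-41696287. The start used for Cntfr, the outermost of 6 in RefSeq, lies 1052 bases inside the gene as GENCODE draws it.
Ngfr: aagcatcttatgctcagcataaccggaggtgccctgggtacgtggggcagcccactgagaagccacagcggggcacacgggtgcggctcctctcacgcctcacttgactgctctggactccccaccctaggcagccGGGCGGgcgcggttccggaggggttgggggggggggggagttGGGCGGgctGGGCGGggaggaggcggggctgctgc
Cntfr: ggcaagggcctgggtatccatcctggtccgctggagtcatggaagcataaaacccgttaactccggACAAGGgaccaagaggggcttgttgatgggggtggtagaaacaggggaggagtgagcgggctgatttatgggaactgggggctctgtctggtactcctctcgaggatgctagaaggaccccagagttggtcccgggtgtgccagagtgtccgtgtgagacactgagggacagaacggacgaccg
Capitals mark GGGCGG, the GC box bound by Sp1, and ACAANG, searched on both strands, and no matches overlap. With any base at N, ACAANG is a loose pattern that takes in the core of SOX factor sites but other sequences too. The Ngfr window of 213 bases is 70.9% G and C and holds GGGCGG 3 times and ACAANG nowhere. The Cntfr window of 250 bases is 58.8% G and C and holds ACAANG once and GGGCGG nowhere. Of 32851 windows of the same length, 27.4% hold GGGCGG and 32.5% ACAANG at 213 bases, and 32.7% and 36.3% at 250 bases. The motifs were chosen after the expression values were known, and a match does not show a bound site.

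Ntrk2 (ENSMUSG00000055254, chromosome 13 from 58806569 to 59133970) encodes TrkB, the receptor of BDNF. Its RPKM was 1.19 and 1.08 in wild-type, 0.769 and 1.09 in mutant and 5.46 and 1.53 in Wnt1-Ribotag libraries. Wild-type and mutant libraries overlapped, and 1 Wnt1-Ribotag library carried most of the excess over them. The log2 difference was -0.20 (95% interval from -0.62 to 0.22, limma adjusted p = 0.609) in mutant vs. wild-type muscle. It was 1.09 (SE 0.54, limma adjusted p = 0.337) in Wnt1-Ribotag vs. wild-type, and 0.31 without Wnt1-Ribotag 1. TrkB has a form with the kinase and truncated forms without it, which values per gene do not separate.

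Ntrk3 (ENSMUSG00000059146, chromosome 7 from 78175959 to 78738012) encodes TrkC, the receptor of NT-3. Its RPKM was 4.38 and 5.02 in wild-type, 3.88 and 2.98 in mutant and 6.45 and 3.03 in Wnt1-Ribotag libraries. Both mutant libraries were below both wild-type libraries, and the Wnt1-Ribotag libraries lay on either side of wild-type. Mutant muscle differed from wild-type by -0.41 on the log2 scale (SE 0.17, limma adjusted p = 0.410). In Wnt1-Ribotag vs. wild-type it was -0.07 (95% interval from -0.99 to 0.85), wide enough to hold a rise or a fall of nearly 2-fold, and its sign turned to 0.0009 under median-ratio scaling.

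Among the GDNF family receptors, Ret (ENSMUSG00000030110, chromosome 6 from 118151745 to 118197718), the signalling kinase, had the lowest mean of the 9 genes in each group, although it was above Ntrk2 in wild-type 6 and above Ntrk2 and Ntrk3 in Wnt1-Ribotag 2. Wild-type 5 and 6 had 0.136 and 1.93 RPKM, mutant 1 and 2 had 0.043 and 0.106, and Wnt1-Ribotag 1 and 2 had 1.29 and 5.55. Over the annotated exons this is roughly 92, 3003, 38, 166, 1073 and 6430 reads in the same order, so Ret was measured, not at the floor, in every library. Wild-type 6 was 14.2 times wild-type 5, and Ret passed the filter on low values in the comparison of genotypes only through wild-type 6. On average mutant muscle had 7.24% of the level in wild-type, with a log2 difference of -1.12 (SE 0.52, limma adjusted p = 0.424) between -2.16 and -0.07 in the 4 pairs. Without wild-type 5 it was -2.08 (limma adjusted p = 0.0021), a fit of the single library that brought Ret over the filter against the mutant pair, and without wild-type 6 the mean of Ret was below the filter. Against mutant muscle Ret passed the filter only through the Wnt1-Ribotag libraries.

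Within each group the library with more Ret also had the higher sums of neuronal markers. The 10 neuron and axon markers summed to 15.5 and 74.2 RPKM in wild-type 5 and 6, 9.60 and 13.6 in mutant 1 and 2, and 122 and 541 in Wnt1-Ribotag 1 and 2. The 6 markers of autonomic and sympathoadrenal cells, such as Th and Dbh of catecholamine synthesis, summed to 2.60 and 20.4, 1.24 and 1.30, and 50.2 and 275 RPKM in the same order. From wild-type 5 to wild-type 6 these sums differed 4.78-fold and 7.87-fold, while the Schwann cell markers other than Erbb3 had a ratio of 0.919. From Wnt1-Ribotag 1 to 2 the ratio was 4.30 for Ret, 4.42 for the neuron and axon markers, 5.47 for the sympathoadrenal markers and 2.50 for the Schwann cell markers other than Erbb3, so that these were also higher there. The part of neuronal or Schwann cell RNA in the Ret differences was not tested. The Wnt1-Ribotag mean of Ret was 3.31 times that of wild-type, with overlap (log2 difference 1.40, SE 0.85, limma adjusted p = 0.414). With 1 library left out, that difference lay between 0.44 (without wild-type 5) and 2.37 (without wild-type 6). The log2 difference of Ret from mutant libraries was 2.52 (SE 0.60, limma adjusted p = 0.114), between 1.56 and 3.48 in the pairs.

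**Figure D3:**
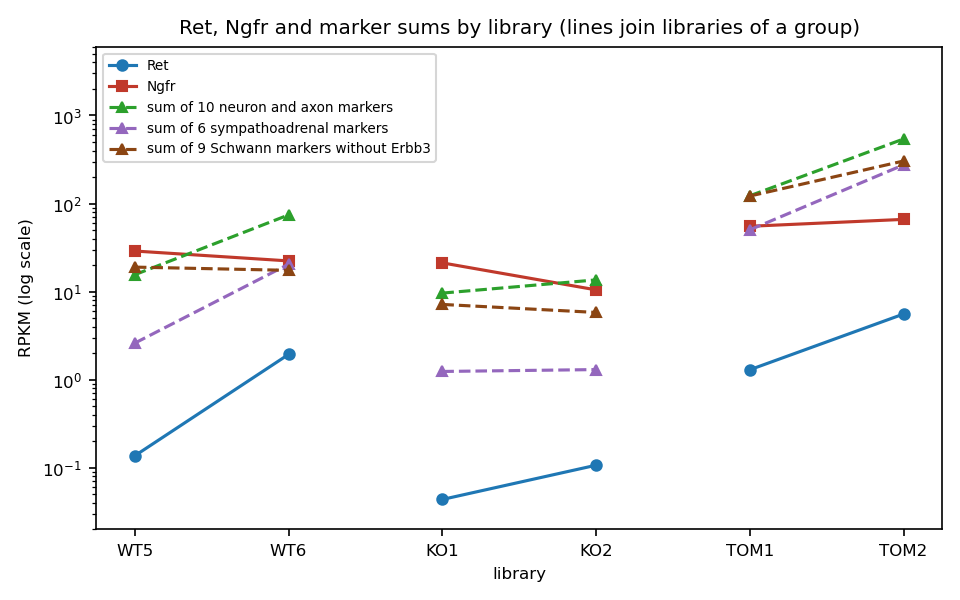
RPKM on a log axis of Ret, Ngfr and 3 sums of marker genes in the 6 libraries, where lines join the libraries of a group. Ret and the neuron and sympathoadrenal sums are higher in wild-type 6 (WT6) than in wild-type 5 (WT5) and in Wnt1-Ribotag 2 (TOM2) than in Wnt1-Ribotag 1 (TOM1), while the ratios of Ngfr are 0.772 and 1.20.

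Gfra1 (ENSMUSG00000025089, chromosome 19 from 58235604 to 58455909), the co-receptor preferred by GDNF, had an RPKM of 5.23 and 5.45 in wild-type, 4.75 and 3.45 in mutant and 13.2 and 11.3 in Wnt1-Ribotag libraries. The 3 groups did not overlap. The log2 difference was -0.36 (SE 0.18, limma adjusted p = 0.437) in mutant vs. wild-type muscle. In Wnt1-Ribotag libraries it was 1.12 (SE 0.18, limma adjusted p = 0.151, unadjusted 0.0015) vs. wild-type, between 0.99 and 1.25 in the pairs, and 1.48 (SE 0.25, limma adjusted p = 0.0571) vs. mutant. An antisense gene, Gm16277, overlaps exons of Gfra1 on the other strand, and whether reads were counted by strand is not given in the sources used here.

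Gfra2 (ENSMUSG00000022103, chromosome 14 from 70890120 to 70979838), the co-receptor preferred by neurturin, had an RPKM of 2.89 and 2.72 in wild-type, 2.26 and 1.47 in mutant and 5.96 and 9.24 in Wnt1-Ribotag libraries. These groups did not overlap either. The log2 difference was -0.50 (SE 0.20, limma adjusted p = 0.393) in mutant vs. wild-type muscle. In Wnt1-Ribotag libraries it was 1.27 (SE 0.26, limma adjusted p = 0.170) vs. wild-type and 1.77 (SE 0.32, limma adjusted p = 0.0655) vs. mutant. The co-receptor levels per length exceeded that of Ret in every library, and in wild-type 5 and both mutant libraries Ret did not exceed 0.136 RPKM.

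Of the cytokine receptors, Cntfr (ENSMUSG00000028444, chromosome 4 from 41657498 to 41697089), the anchored receptor that makes cells sensitive to CNTF, had the difference between genotypes that varied least over the library pairs. Its RPKM was 17.0 and 16.8 in wild-type, 11.1 and 10.3 in mutant and 14.0 and 20.8 in Wnt1-Ribotag libraries. Both mutant libraries lay below every other library. On average mutant muscle had 63.4% of the level in wild-type, with a log2 difference of -0.63 (SE 0.13, limma adjusted p = 0.137, unadjusted 0.0013) between -0.69 and -0.57 in the 4 pairs. In Wnt1-Ribotag vs. wild-type libraries it was 0.01 (95% interval from -0.59 to 0.61, limma adjusted p = 0.987), and vs. mutant 0.64 (SE 0.26, limma adjusted p = 0.252).

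Lifr (ENSMUSG00000054263, chromosome 15 from 7090614 to 7197489) encodes the LIF receptor, a signalling chain that is also expressed in liver. Its RPKM was 2.81 and 3.87 in wild-type, 3.18 and 2.37 in mutant and 10.4 and 5.64 in Wnt1-Ribotag libraries. Wild-type and mutant libraries overlapped, and both Wnt1-Ribotag libraries were higher. The log2 difference was -0.23 (95% interval from -0.69 to 0.24, limma adjusted p = 0.606) in mutant vs. wild-type muscle. In Wnt1-Ribotag libraries it was 1.11 (SE 0.34, limma adjusted p = 0.206) vs. wild-type and 1.33 (SE 0.34, limma adjusted p = 0.131) vs. mutant. Between the wild-type libraries the liver markers and Lifr went opposite ways, with wild-type 6 at 0.308 of wild-type 5 for the liver markers and at 1.38 for Lifr. Between the Wnt1-Ribotag libraries they went the same way, with Wnt1-Ribotag 2 at 0.671 and 0.541 of Wnt1-Ribotag 1. The part of liver RNA in the Lifr levels was not tested.

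Il6st (ENSMUSG00000021756, chromosome 13 from 112464070 to 112510086), whose product gp130 is shared by the whole cytokine family and made by most cells, was alone among the 9 in having a lower level in Wnt1-Ribotag than in wild-type libraries without overlap. Its RPKM was 21.3 and 23.4 in wild-type, 20.9 and 15.4 in mutant and 19.3 and 12.8 in Wnt1-Ribotag libraries. The log2 difference from wild-type was -0.49 (SE 0.24, limma adjusted p = 0.334) in Wnt1-Ribotag libraries and -0.31 (SE 0.17, limma adjusted p = 0.464) in mutant muscle. With 1 library left out, the former lay between -0.78 and -0.20 and the latter between -0.52 and -0.09. Mutant and Wnt1-Ribotag libraries overlapped.

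By the level per length in wild-type muscle, the order was Ngfr, Il6st, Cntfr, Gfra1, Ntrk3, Lifr, Gfra2, Ntrk2 and Ret. Neighbours whose wild-type libraries overlapped were Ngfr and Il6st, Lifr and Gfra2, and Ntrk2 and Ret. In mutant muscle Il6st came before Ngfr and the order was otherwise the same. There the libraries of Ngfr overlapped with those of Il6st and Cntfr, and those of Ntrk3 with Gfra1 and Lifr. In Wnt1-Ribotag libraries the order was Ngfr, Cntfr, Il6st, Gfra1, Lifr, Gfra2, Ntrk3, Ntrk2 and Ret. Ngfr stood above the other receptors there in both libraries, and all lower neighbours overlapped except Gfra1 and Lifr.

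Other genes of these pathways were read from a list of 70, of which 57 passed the filter on low values in each comparison. In mutant vs. wild-type muscle 0 passed in limma in either direction (11 of 57 had an unadjusted p under 0.05, beside 12.0% of all genes), 50 were lower and 7 higher, with a median log2 difference of -0.26. Of all genes 67.0% were lower, with a median of -0.10. The 18 adaptors and kinases tested had a median of -0.24 and the 11 targets and feedback genes one of -0.33. Other neurotrophin and GDNF family receptors had medians of -0.48 and -0.55, ligands one of -0.09 and other IL-6 family receptors one of -0.01. In Wnt1-Ribotag vs. wild-type libraries 0 passed (9 of 57 had an unadjusted p under 0.05, beside 19.5% of all genes), 27 were higher and 30 lower (45.6% of all genes were higher), with a median of -0.02, beside 1.11 for the 9 receptors. The 4 other GDNF family receptor genes tested were all higher, with a median of 1.17. Medians of the remaining lists lay between -0.34 and 0.10. In Wnt1-Ribotag vs. mutant libraries 2 of 57 passed, both higher, Gfra3 and Gap43, beside 1.19% of all genes. An unadjusted p under 0.05 was found for 11, beside 19.3% of all genes, and 36 were higher and 21 lower (53.0% of all genes were higher), with a median of 0.25.

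Gfra3, the co-receptor for artemin, had the largest differences of the list. Its RPKM was 0.787 and 1.68 in wild-type, 0.011 and 0.101 in mutant and 7.98 and 36.1 in Wnt1-Ribotag libraries. It passed the filter in the comparison of genotypes only through wild-type muscle, and against mutant muscle only through the Wnt1-Ribotag libraries. Its log2 difference was -1.59 (SE 0.26, limma adjusted p = 0.0829) in mutant vs. wild-type. Gfra3 was at least 2-fold lower there in every pair, and 0.448% of all genes were at least 2-fold apart in every pair. The log2 difference was 3.40 (SE 0.72, limma adjusted p = 0.170) in Wnt1-Ribotag vs. wild-type and 4.99 (SE 0.64, limma adjusted p = 0.0258) vs. mutant. The last adjusted p was 0.13 without a filter on low values and 0.0517 after quantile normalization.

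Gap43, a growth cone protein also made by immature Schwann cells, had an RPKM of 7.42 and 23.8 in wild-type, 6.55 and 7.58 in mutant and 56.1 and 239 in Wnt1-Ribotag libraries. Wild-type and mutant libraries overlapped, and the log2 difference of Wnt1-Ribotag from mutant libraries was 3.95 (SE 0.61, limma adjusted p = 0.0444). Under 5 alternatives its adjusted p rose above 0.05, to at most 0.161. Like Ret, Gap43 was higher in wild-type 6 than in wild-type 5 (3.20-fold) and in Wnt1-Ribotag 2 than in 1 (4.25-fold), as were the neuron and axon markers, whose part in this was not tested. For Gfra3 these ratios were 2.13 and 4.53.

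At least 2-fold higher in every pair of Wnt1-Ribotag and mutant libraries were 4 of the 57 genes, Gfra3, Gap43, Cntf and Shc2, beside 3.34% of all genes. Against wild-type libraries 2 of 57 were so, Gfra3 and Gap43, beside 1.51% of all genes. Cntf, a ligand that acts through Cntfr, was at 1.21 and 1.57 RPKM in wild-type, 1.12 and 1.37 in mutant and 5.53 and 3.41 in Wnt1-Ribotag libraries (log2 difference from mutant 1.48, SE 0.32, limma adjusted p = 0.0999). Its wild-type and mutant libraries overlapped. Shc2, an adaptor of Trk receptors, was at 10.7 and 12.3 RPKM in wild-type, 7.13 and 7.03 in mutant and 15.7 and 16.8 in Wnt1-Ribotag libraries (log2 difference from mutant 1.14, SE 0.22, limma adjusted p = 0.0728).

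**Figure D4:**
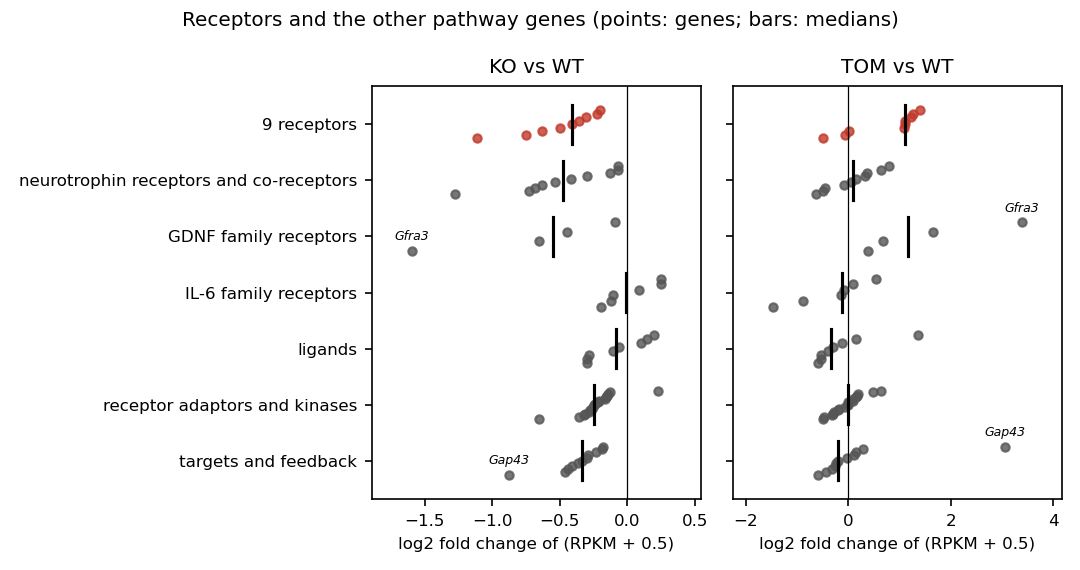
Log2 differences of RPKM plus 0.5 of the 9 receptors and the tested genes of 6 pathway lists, for mutant vs. wild-type (KO vs WT) and Wnt1-Ribotag vs. wild-type (TOM vs WT), where points are genes and bars medians. The median of the 9 receptors is -0.41 on the left and 1.11 on the right, and Gfra3 stands farthest out in both.

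The genes whose profiles over the 6 libraries came nearest were sought for the 6 receptors whose group means spanned at least 1 on the log2 scale, as the Euclidean distance of log2 values after each gene's mean was taken off, among 14320 genes. Among the nearest to Ret were Ptprn (distance 0.54) and Celf3 (0.57), and Celf3, an RNA-binding protein of neurons, was at 0.171 RPKM in wild-type 5, 2.31 in wild-type 6, 0.138 and 0.178 in mutant and 1.36 and 9.66 in Wnt1-Ribotag libraries. Nearest to Ngfr were Tmcc2 (0.35), Prss12 (0.50) and its fellow member Gfra2 (0.54). Nearest to Gfra1 were Efna5 (0.20), Klf13 (0.21) and Nus1 (0.23), and nearest to Gfra2 were Nr4a2 (0.21), Mxra7 (0.25) and Gnao1 (0.26). Nearest to Ntrk2 were Adh1 (0.17), Rbms2 (0.33) and Thap12 (0.34), all of which had their highest level in Wnt1-Ribotag 1, as 98.4 RPKM for Thap12 beside 33.5 in Wnt1-Ribotag 2. Nearest to Lifr were Tnfrsf25 (0.19), ENSMUSG00000090663 (0.21) and Tbl1xr1 (0.22), also highest in Wnt1-Ribotag 1. With 2 libraries a group, a shared profile can rest on a single library.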

How the data were processed

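Diaphragm RNA was sequenced by the authors, who deposited RPKM per Ensembl gene for each library, with a mark for genes at a floor value that stands in place of 0. The submitters' processing notes name STAR and the build mm9, and the counting program, its strand setting and versions are not given in the sources used here. Read counts were not used, so counting error was not computed. Depths were derived from the floor of single-exon genes, and the reads given for Ret from its RPKM, that depth and the length of its annotated exons.

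Symbols and positions came from GENCODE M21 on GRCm38, which matched 21583 identifiers and not 1490. Each of the 3 comparisons was fitted on its own 4 libraries with limma 3.58.1 under R 4.3.3, as lmFit and a trended eBayes on log2(RPKM + 0.5), without a block. Genes entered a fit when their RPKM averaged 0.5 or more over those libraries. The p-values were adjusted by Benjamini-Hochberg over every gene of the fit and read at a threshold of 0.05. Fold changes on this scale understate those of scarce genes such as Ret. All 9 receptors passed the filter in every comparison. Differences of at least 2-fold in each of the 4 library pairs were counted without a test. Replicates are separate samples in the labels, and p-values measure only the spread between these samples. The fit was also run on simulated data, which is not used as support for any result here. With 2 libraries a group, not passing the threshold does not show that a gene is unchanged.

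The receptors and the lists of pathway and marker genes were chosen with earlier results of these data known. Named are the receptors, pathway genes that passed or were 2-fold apart in every pair, the 3 nearest profiles, Sox10, Erbb3 and marker genes of high mean; the motifs and the windows were chosen after values were seen. The profile of 1 gene is not reported here. The fits were repeated with a pseudocount of 0.1 or 1, with the filter dropped or set to 1 RPKM, with libraries scaled by median ratios or quantile normalized, with untrended eBayes, with all 6 libraries, with a replicate block, with a threshold of 0.1, with 1.5-fold or 3-fold in place of 2-fold, and without each library.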

Additional observations from a re-analysis of the deposited data

How the results depend on the processing

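Of 330 log2 differences of the receptors under alternatives, 290 kept their direction and their side of the threshold, 33 newly passed it and 7 changed direction. The differences in mutant vs. wild-type muscle stayed below 0 for all 9 receptors under every alternative run that gave them a value, while between 49.2% and 69.9% of all genes were below 0. In that comparison the number past the threshold, 0, ranged from 0 to 1 when a library was left out (1, Ret, without wild-type 5, with an adjusted p of 0.0021 from limma and a range from 0.0021 to 0.994 over its alternatives), and the number 2-fold apart in every pair also from 0 to 1 (1 without wild-type 5, Ret, and 1 without mutant 1, Ngfr). In Wnt1-Ribotag vs. wild-type libraries, the number past the threshold stayed at 0 except when a Wnt1-Ribotag library was left out, where far larger shares of all genes passed too. The number 2-fold apart in every pair was 3 at 1.5-fold (8.5% of all genes), 2 at a pseudocount of 0.1 (3.86%), 2 under median-ratio scaling (2.39%) and between 2 and 3 when a library was left out (between 2.92% and 9.5%), beside 2.34% of all genes in the reported setting. In Wnt1-Ribotag vs. mutant libraries, the number past the threshold was 3 at an adjusted p of 0.1 (2.89% of all genes), 2 at a mean RPKM of at least 1 (1.5%) and 3 with all 6 libraries in 1 fit (where 4.74% of all genes passed). That number also rose without mutant 1, and without either Wnt1-Ribotag library, where far larger shares of all genes passed too. In every pair 4 receptors were 2-fold but 0 were 3-fold apart (3.95% and 1.56% of all genes). Ret had a mean below the filter, and no value, in mutant vs. wild-type muscle without wild-type 6 and at a mean RPKM of at least 1, and in Wnt1-Ribotag vs. mutant libraries without Wnt1-Ribotag 2. A fit without 1 library takes the lone sample to vary like the other group, whose pair alone then sets the spread. Wnt1-Ribotag and mutant libraries share the numbers 1 and 2. Deviations of same-numbered libraries from their group means correlated with r = 0.168 across genes, and nothing in the labels pairs them. With the replicate block 5 receptors passed, Ngfr, Gfra1, Gfra2, Lifr and Ret, and 5.88% of all genes. Ret was over the filter in Wnt1-Ribotag vs. mutant libraries only through the former in this fit. No such fit was made for the other comparisons, whose groups share no numbers.

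Direction changed for Ntrk3 in Wnt1-Ribotag vs. wild-type libraries (0.0009 under median-ratio scaling, and between -0.56 and 0.42 when a library was left out), for Cntfr there (between -0.27 and 0.29), for Ntrk3 vs. mutant (between -0.15 and 0.83), for Il6st vs. mutant (between -0.47 and 0.10), and for Cntf in mutant vs. wild-type muscle (0.079 under quantile normalization, and between -0.25 and 0.029 when a library was left out). The cause was not tested.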
